A study of Mus musculus with 2 samples.

Results

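Levels of 6 genes were followed through the epithelium of the mouse thymus: Col6a1, Col6a2 and Col6a3, which encode the classical chains of collagen VI, Col12a1, which encodes the fibril-associated collagen XII, Sparc, which encodes a secreted collagen-binding glycoprotein, and Antxr1, which encodes a cell-surface receptor for collagen VI. They were taken by name from the gene table, 6 of 55487 gene identifiers, chosen by their measured levels across cell types and strains in earlier results of these data. Their levels by cell type and strain are therefore given as a description, with no test. The study asked how thymic mimetic cells compare between C57BL/6 (B6), BALB/c and NOD mice, with 2 female mice of each strain, all 6 weeks old; the labels name no allele and no treatment. Thymic cells were dissociated with collagenase and dispase, depleted of CD45+ cells, stained with 1 hashtag antibody per mouse, sorted as Pdpn- CD104- mTEClo and encapsulated as 1 pool, so that all 6 mice share 1 gene expression library and 1 hashtag library. B6 carried hashtags HT1 and HT2, BALB/c HT3 and HT5, and NOD HT6 and HT8, which are called mouse 1 and mouse 2 of each strain below. The labels give HT6 and HT8 the same replicate number, and they were treated as 2 NOD mice.

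Collagen VI is a beaded-filament collagen found around basement membranes and in connective tissue. In its usual form the products of Col6a1, Col6a2 and Col6a3 join into a heterotrimer inside the cell, and the related chains encoded by Col6a4, Col6a5 and Col6a6 can take the place of the Col6a3 chain. Mesenchymal cells are its best-known source, although epithelial sources are also known. The medulla of the thymus holds mTECs (medullary thymic epithelial cells) that pass from an immature, Ccl21a-producing state through an Aire-expressing stage into mimetic cells, which take on programs of peripheral cell types such as tuft cells, microfold cells, ciliated cells or keratinocytes.

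Of 3447 barcodes, 2527 held at least 500 genes and under 15% mitochondrial UMIs (unique molecular identifiers, here 1 per captured RNA molecule). Of these, 1705 had at least 100 hashtag UMIs with at least 80% from 1 mouse, and 1648 of them were epithelial, numbering 213 and 224 (B6), 397 and 579 (BALB/c) and 113 and 122 (NOD). Median depth lay between 13498 and 14375 UMIs per cell in the 6 mice. Cells were placed in 14 epithelial classes by marker scores, and 232 stayed ungated. The check of strain used H2-Ea, a class II gene that B6 and NOD mice are known not to express: its level in epithelial cells was 982 and 928 CPM (UMIs of the gene per 1000000 UMIs) in the BALB/c mice and between 9.28 and 173 CPM in the other 4. Among the immature mTEC-like cells, 1 of 6 cells of B6 mouse 1 and 1 of 48 cells of NOD mouse 1 held 20 or more H2-Ea UMIs. The levels of Col6a1, Col6a2, Col12a1, Sparc and Antxr1 in this class are also given without those cells.

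All 6 genes are read from the minus strand. Col6a1 (chr10:76708792-76726168) and Col6a2 (chr10:76595762-76623630) are neighbours on chromosome 10 of mm10, 85.2 kb apart with 1 annotated gene between them. Col6a3 lies at chr1:90765923-90843971, Col12a1 at chr9:79598991-79718831, Sparc at chr11:55394500-55423183 and Antxr1 at chr6:87133853-87335821. Antxr1 overlaps 7 short annotated genes, Col12a1 overlaps 1 gene on the other strand and Col6a3 overlaps 1 on the same strand; Col6a1, Col6a2 and Sparc overlap none. Col6a1 and Col6a2 moved together, while Col6a3 had too few UMIs for a comparison of strains. The bases just before the annotated starts of these 3 genes are printed here from RefSeq promoters of GRCm38.p6 (the assembly behind mm10). That source held an entry for 4 of the 6 genes. Bases inside a GENCODE M21 exon of the same gene were left out, and exons of other genes were not checked. This leaves 126 bases for Col6a1 (chr10:76726169-76726294), 250 for Col6a2 (chr10:76623631-76623880) and 250 for Col6a3 (chr1:90843972-90844221). Each is on the minus strand, written 5′ to 3′ with motif matches in capitals.
Col6a1: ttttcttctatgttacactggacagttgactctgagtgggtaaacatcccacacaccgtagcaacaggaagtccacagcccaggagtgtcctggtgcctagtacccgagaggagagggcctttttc
Col6a2: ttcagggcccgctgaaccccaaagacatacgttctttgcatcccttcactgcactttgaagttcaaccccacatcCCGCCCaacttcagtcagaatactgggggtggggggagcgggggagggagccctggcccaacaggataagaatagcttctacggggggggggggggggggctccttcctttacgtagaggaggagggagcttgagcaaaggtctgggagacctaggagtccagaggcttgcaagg
Col6a3: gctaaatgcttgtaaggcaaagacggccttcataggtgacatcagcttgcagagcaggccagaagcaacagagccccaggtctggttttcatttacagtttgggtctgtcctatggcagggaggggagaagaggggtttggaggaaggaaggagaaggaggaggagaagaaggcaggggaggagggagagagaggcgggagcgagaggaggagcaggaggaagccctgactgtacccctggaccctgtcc
The motifs searched on both strands were the GC box GGGCGG, the CCAAT box CCAAT, the TATA box TATAAA, the AP-1 motif TGANTCA and the E-box CACCTG. The capitals in Col6a2 mark the GC box, read there from the other strand as CCGCCC and with its first base at -175 from the start, a match held by 32.7% of the 32851 promoter windows of that length. No other match was found in the 3 windows; CCAAT occurs in 33.8%, TATAAA in 12.4%, CACCTG in 17.2% and TGANTCA in 6.75% of windows of 250 bases. The matches describe letters and do not show binding.

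Col6a1, Col6a2, Antxr1 and Col12a1 had their highest levels in immature mTEC-like cells and in contractile cells, and Sparc stood highest in tuft-like cells. Averaged over mice with at least 5 cells of the class, which leaves B6 out of the contractile means, Col6a1 measured 263 ± 179 CPM (SD, n = 6 mice) in immature mTEC-like cells and 195 ± 134 CPM (n = 4) in contractile cells, against 8.84 ± 4.72 CPM (n = 6) in Aire-stage cells and 0.810 ± 0.844 CPM (n = 6) in tuft-like cells. The first pair of classes overlapped. Among mice with at least 5 cells of a class, the lowest contractile value was 47.0 CPM, and the highest in the other named classes was 40.6 CPM, from 2 UMIs in 5 secretory-like cells; mice with 1 to 3 ciliated, cycling or ionocyte-like cells reached up to 170 CPM. Col6a2 followed the same order at the top, with 217 ± 156 CPM (n = 6) in immature mTEC-like and 95.9 ± 55.9 CPM (n = 4) in contractile cells, and it stood at 2.04 ± 2.05 CPM (n = 6) in Aire-stage cells. Antxr1 measured 155 ± 68.6 CPM (n = 6) in immature mTEC-like and 142 ± 46.0 CPM (n = 4) in contractile cells, and no other named class averaged above 15.2 CPM.

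Collagen XII reached further along the mTEC path than collagen VI. Col12a1 measured 126 ± 23.4 CPM (SD, n = 4 mice) in contractile cells, 124 ± 85.1 CPM (n = 6) in immature mTEC-like cells and 75.1 ± 31.9 CPM (n = 6) in Aire-stage cells, and these 3 neighbours in the order overlapped. In each of the 4 mice with both classes the immature cells were the higher, at 210, 154, 117 and 210 CPM against 149, 99.0, 114 and 142 CPM in contractile cells. Tuft-like cells held 0.395 ± 0.967 CPM of Col12a1 (n = 6), with no UMI in 5 of the 6 mice. Sparc had another order, with 170 ± 123 CPM (n = 6) in tuft-like, 134 ± 169 CPM (n = 4) in contractile and 52.9 ± 38.6 CPM (n = 6) in immature mTEC-like cells, which also overlapped. The keratinocyte-, microfold-, enterocyte-hepatocyte- and secretory-like classes held no Sparc UMI in any mouse with at least 5 cells.

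**Figure D1:**
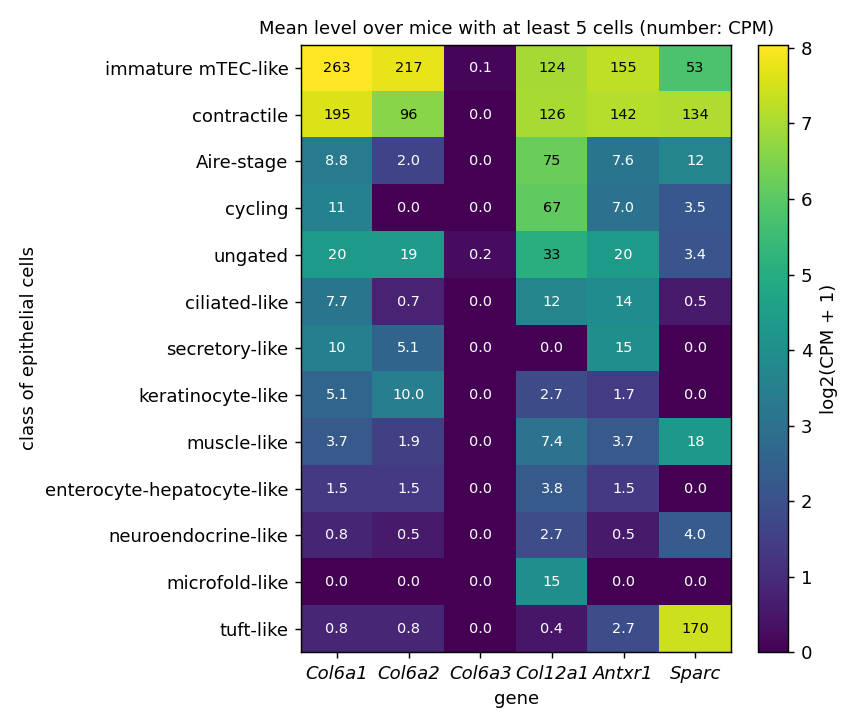
Mean level of each gene (columns) in 13 classes of epithelial cells (rows), as log2(CPM + 1) in colour and CPM as a number, averaged over mice with at least 5 cells of the class. Col6a1, Col6a2, Antxr1 and Col12a1 are bright in the upper 2 rows, Col12a1 stays bright in Aire-stage cells at 75.1 CPM, and Sparc is bright in tuft-like cells at 170 CPM.

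Leukocytes of the same pool were taken as a reference for cells that should lack these genes. The part of free RNA and mixed droplets in their levels was not tested. The leukocytes were taken with or without a mouse, and only 52 of them were assigned to one. In 383 leukocyte-gated barcodes with a median of 30227 UMIs, Col6a1 stood at 5.97 CPM, Col6a2 at 3.71, Antxr1 at 3.53, Col12a1 at 2.17 and Sparc at 1.27 CPM. The 85 B lineage barcodes among them were highest for Col6a1, at 14.0 CPM, and the 208 myeloid or dendritic ones stood at 1.76 CPM. Of the 66 Col6a1 UMIs in leukocytes, 52 lay in 6 B lineage barcodes, so this level rests on few droplets. A Col6a1 UMI was present in 2.87% of the leukocytes (exact 95% interval 1.44% to 5.08%, counting error only). Levels of Col6a1, Col6a2, Col12a1 and Antxr1 in tuft-like cells, and of Col6a1, Col6a2 and Antxr1 in Aire-stage cells, are near or below this background. They are read neither as expression nor as its absence.

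Col6a3 was close to absent. Over 1648 epithelial cells and 28888338 UMIs it had 4 UMIs in 3 cells, all in BALB/c mice, whereas Col6a1 had 1578 UMIs in 409 cells and Col6a2 had 1136 UMIs in 326 cells. In the 432 immature mTEC-like cells Col6a3 had 1 UMI, in a BALB/c cell. It had none in the 101 NOD cells, which allows up to 2.26 CPM, and none in the 21 B6 cells, which allows up to 12.02 CPM. The chains that can replace it were also low there: Col6a4 had 39 UMIs, Col6a5 1 UMI and Col6a6 none in the 432 cells. Col6a4 measured 24.9 and 47.3 CPM (B6), 7.99 and 3.40 CPM (BALB/c) and 7.40 and 7.68 CPM (NOD), so that the B6 values, from 10 UMIs in all, lay above the others. This library counts RNA by 3′-end capture, and whether intronic reads were counted is not given in the sources used here. The near absence of Col6a3 is therefore a statement about captured RNA.

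Summed over all epithelial cells of a mouse, Col6a1, Col6a2, Col12a1, Sparc and Antxr1 were higher in both BALB/c and both NOD mice than in the B6 mice. The share of all genes that separate these mice in the same way was not computed. Nothing is therefore read from how many of the chosen genes separate the mice, here or below. Of all 15742 genes tested, 9.14% passed an adjusted p of 0.05 in BALB/c against B6 and 25.2% in NOD against B6 (edgeR), and since the genes were chosen by these levels nothing is read from their count. Such sums cannot tell fewer cells of a type from less RNA per cell. Col6a1 measured 4.11 and 13.1 CPM (B6), 33.8 and 50.5 CPM (BALB/c) and 151 and 182 CPM (NOD). The 3 strains did not overlap, in the order B6, BALB/c, NOD. Col6a2 measured 2.06 and 13.9 CPM (B6), 21.6 and 32.9 CPM (BALB/c) and 121 and 134 CPM (NOD), in the same order and again without overlap. Antxr1, the receptor, measured 2.06 and 7.20 CPM (B6), 53.8 and 54.1 CPM (BALB/c) and 62.1 and 78.1 CPM (NOD). Col12a1 measured 5.40 and 10.3 CPM (B6), 64.2 and 58.2 CPM (BALB/c) and 69.1 and 97.5 CPM (NOD). For both genes B6 lay far below the other strains, which lay close together. Sparc measured 34.4 and 7.97 CPM (B6), 77.9 and 64.9 CPM (BALB/c) and 57.2 and 98.3 CPM (NOD), where the last 2 strains overlapped.

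**Figure D2:**
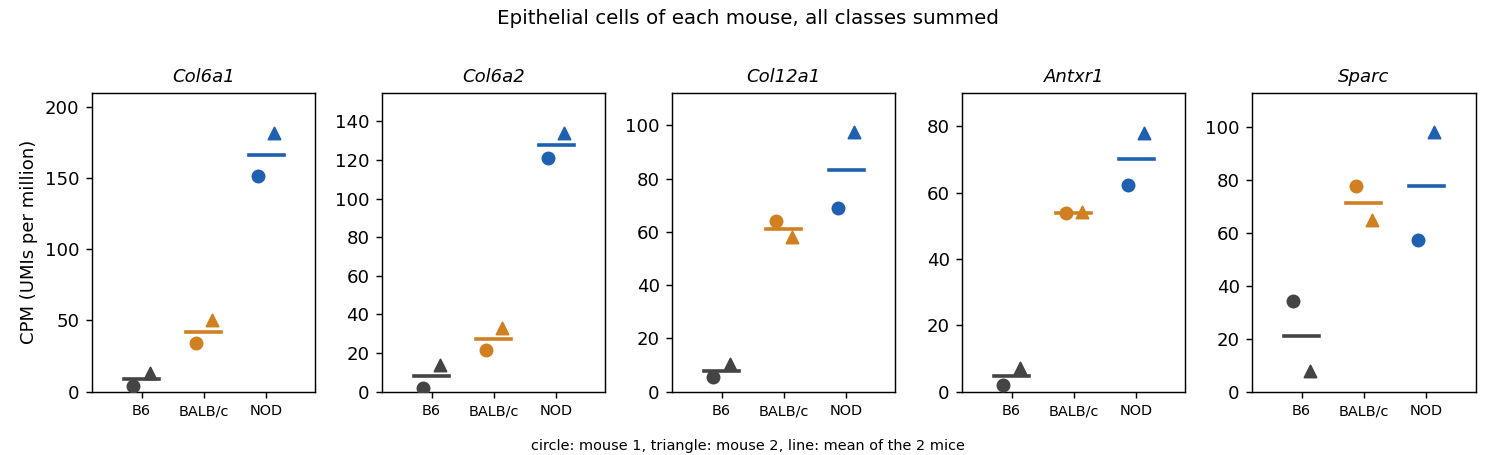
Level of 5 genes in the summed epithelial cells of each mouse (vertical axis: CPM, from 0; horizontal axis: strain; circle and triangle: the 2 mice; line: their mean). Col6a1 and Col6a2 step up from B6 over BALB/c to NOD, while Antxr1 and Col12a1 are low in B6 and close together in BALB/c and NOD.

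Fitted with edgeR over all 15742 genes, the log2 difference of BALB/c from B6 was 3.51 (SE 0.42) for Antxr1, 2.94 (SE 0.30) for Col12a1, 2.27 (SE 0.49) for Col6a1, 1.76 (SE 0.68) for Col6a2 and 1.73 (SE 0.63) for Sparc. Against the same B6 mice NOD differed by 3.99 for Antxr1, 3.48 for Col12a1, 4.35 for Col6a1, 4.07 for Col6a2 and 1.95 for Sparc. The contrasts share mice, so they are not independent. Their medians over the 5 fitted genes were 2.27 and 3.99, and 0.55 for NOD against BALB/c, where medians over all genes tested were 0.00, -0.03 and -0.02; Col6a3 fell under the filter on low counts. Between NOD and BALB/c the collagen VI chains stood apart in size, with 2.07 (SE 0.41) for Col6a1 and 2.31 (SE 0.58) for Col6a2 against 0.55 (SE 0.25) for Col12a1, 0.48 (SE 0.33) for Antxr1 and 0.23 (SE 0.59) for Sparc. Without B6 mouse 2 the median for BALB/c against B6 was 3.49 and that for NOD against B6 was 5.17. With cells assigned by HTODemux, another way of reading the hashtags, the Sparc difference from B6 was 5.10 in BALB/c and 5.06 in NOD.

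The make-up of the epithelium also differed between the mice. Immature mTEC-like cells made up 2.82% and 6.70% (B6), 29.0% and 33.7% (BALB/c) and 42.5% and 43.4% (NOD) of epithelial cells. Contractile cells numbered 0 and 2 (B6), 12 and 23 (BALB/c) and 6 and 9 (NOD). Tuft-like cells made up 52.6% and 39.3% (B6), 28.2% and 28.3% (BALB/c) and 7.08% and 8.20% (NOD) of epithelial cells. The sort was set against CD104 and Pdpn protein. Itgb4, which encodes CD104, had a UMI in 81.5% of the immature mTEC-like cells and Pdpn in 31.5%. Both genes are among the markers that placed cells in this class, so these percentages follow in part from the choice of cells. The sort can set the share of immature mTEC-like cells, and its part in the strain difference was not tested. Immature and contractile cells together held 65.7% of the Col6a1 UMIs of B6 epithelium, 87.2% in BALB/c and 92.6% in NOD. For Col6a2 the shares were 69.4%, 85.1% and 95.6%, and for Antxr1 they were 61.1%, 83.9% and 93.2%.

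Col12a1 and Sparc were spread otherwise. Aire-stage cells held 42.6% of the Col12a1 UMIs in B6, more than the 16.4% in immature and contractile cells, although both shares rest on 61 UMIs. In BALB/c the Aire-stage share was 11.2% and in NOD 27.8%. Tuft-like cells held 90.3% of the Sparc UMIs in B6 and 88.0% in BALB/c. In NOD, where tuft-like cells numbered 8 and 10, they held 30.4%, and immature and contractile cells held 58.3%.

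**Figure D3:**
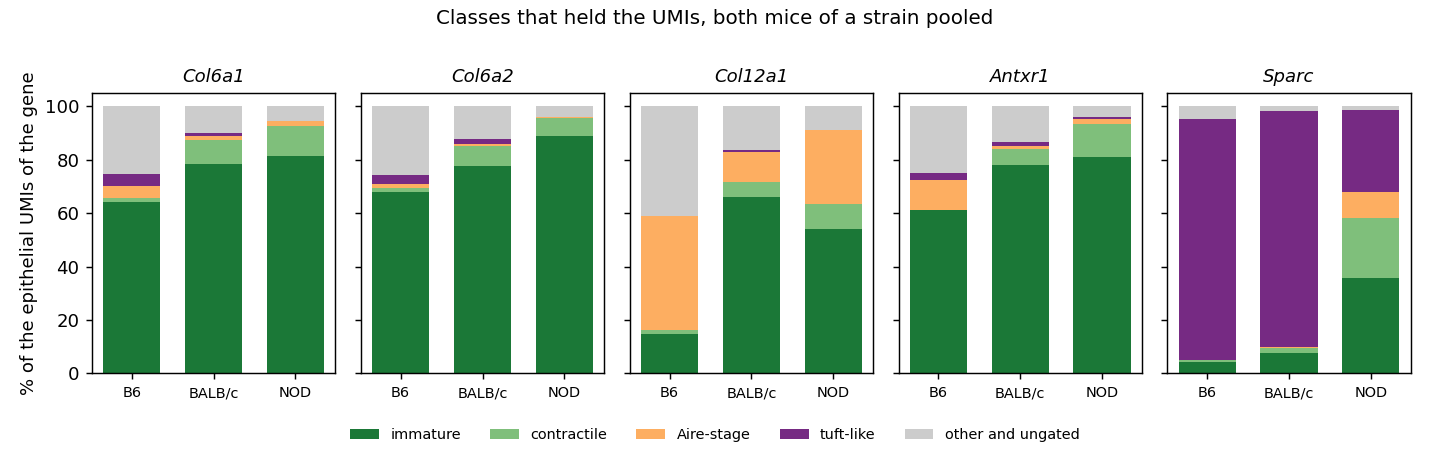
Share of the epithelial UMIs of each gene (vertical axis: percent) that lay in each class, by strain, with both mice pooled. Immature and contractile cells held 92.6% of Col6a1 UMIs in NOD; tuft-like cells held 88.0% of Sparc UMIs in BALB/c and 30.4% in NOD.

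Within immature mTEC-like cells the step from B6 to BALB/c in collagen VI was no longer seen, and the step to NOD was. Col6a1 measured 99.6 and 207 CPM (B6), 129 and 162 CPM (BALB/c) and 476 and 502 CPM (NOD). The BALB/c mice lay between the B6 mice, and both NOD mice lay above all others. Col6a2 measured 87.1 and 207 CPM (B6), 84.3 and 103 CPM (BALB/c) and 398 and 421 CPM (NOD), where BALB/c overlapped B6 and NOD again lay above both. The ratio of NOD to BALB/c means was 3.36 for Col6a1 and 4.36 for Col6a2, close to the 3.95 and 4.68 found over all epithelial cells. The ratio of BALB/c to B6 means was 0.951 for Col6a1 and 0.639 for Col6a2, where it had been 4.89 and 3.42 over all epithelial cells. The B6 values rest on 6 and 15 cells with 43 Col6a1 UMIs; without the 1 cell of B6 mouse 1 with H2-Ea, its Col6a1 level was 77.0 CPM.

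Sparc had the collagen VI pattern in these cells. It measured 49.8 and 17.7 CPM (B6), 31.2 and 18.7 CPM (BALB/c) and 108 and 92.2 CPM (NOD), so the NOD mice lay above the rest and the other strains overlapped. All 4 Sparc UMIs of B6 mouse 1 came from 1 cell, the one with H2-Ea, and the other 5 cells had none. Antxr1 and Col12a1 did not follow it. Antxr1 measured 37.3 and 112 CPM (B6), 184 and 184 CPM (BALB/c) and 182 and 229 CPM (NOD), with B6 lowest and the other strains overlapping. Col12a1 measured 0 and 53.2 CPM (B6), 210 and 154 CPM (BALB/c) and 117 and 210 CPM (NOD), again with B6 lowest. Without its 1 cell with H2-Ea, B6 mouse 1 measured 96.3 CPM of Col6a2, 19.3 of Antxr1 and 0 of Col12a1. NOD mouse 1, without its own such cell, measured 494 CPM of Col6a1, 415 of Col6a2, 115 of Sparc, 190 of Antxr1 and 124 of Col12a1. Antxr1 in both NOD mice then lay above the BALB/c values.

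**Figure D4:**
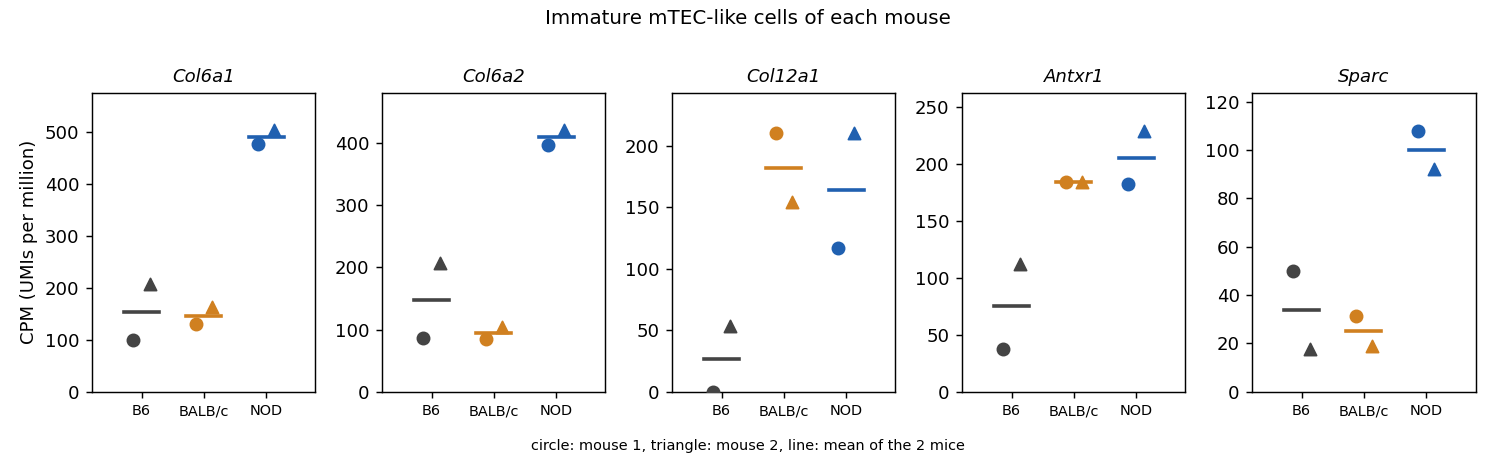
Level of 5 genes in the immature mTEC-like cells of each mouse (vertical axis: CPM, from 0; horizontal axis: strain; circle and triangle: the 2 mice; line: their mean). NOD stands alone for Col6a1 at 476 and 502 CPM, for Col6a2 and for Sparc, while BALB/c and NOD overlap for Col12a1 and Antxr1.

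A fit of these cells alone, made with 5 mice because B6 mouse 1 had under 10 cells, gave NOD differences from BALB/c of 1.76 (SE 0.17) for Col6a1, 2.14 (SE 0.17) for Col6a2 and 2.09 (SE 0.25) for Sparc, on the log2 scale. The same fit gave 0.19 (SE 0.17) for Antxr1 and -0.12 (SE 0.27) for Col12a1. Clusters made with the 6 genes left out put the cells of the 2 strains apart: cluster 10 held 89.1% of the NOD cells of the class, and clusters 5 and 7 held 64.8% and 25.5% of the BALB/c cells. Cluster 10 also held 8 of the 21 B6 cells, with 321 CPM of Col6a1 against 531 CPM in its 90 NOD cells. In cluster 5 the order was the other way, with 163 CPM of Col6a1 and 131 CPM of Col6a2 in 5 NOD cells against 231 and 153 CPM in 201 BALB/c cells. Median depth in the class was 9370 UMIs in B6, 9555 in BALB/c and 9585 in NOD.

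Depth did go with level inside each strain. The BALB/c cells were divided at their median depth: the shallower cells (median 5316 UMIs) measured 235 CPM of Col6a1, 167 of Col6a2, 320 of Antxr1 and 261 of Col12a1, and the deeper cells (median 17892 UMIs) measured 126, 76.6, 146 and 151 CPM. In NOD the shallower cells measured 724 CPM of Col6a1 and the deeper ones 420 CPM. NOD exceeded BALB/c for Col6a1, Col6a2 and Sparc at both depths. Sparc ran the other way, with 14.7 CPM in the shallower and 25.7 CPM in the deeper BALB/c cells and 66.7 and 110 CPM in NOD, as did Col12a1 in NOD with 80.1 and 187 CPM. The shallower cells had a median mitochondrial share of 4.74% in BALB/c and 4.69% in NOD, and the deeper cells 1.53% and 1.95%; the part of cell quality in these levels was not tested.

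A Col6a1 UMI was present in 71.4% of the 21 B6, 58.1% of the 310 BALB/c and 94.1% of the 101 NOD immature mTEC-like cells. After thinning every cell to 5000 UMIs, which left out 5, 71 and 20 shallower cells, the shares were 43.8%, 40.2% and 82.7%. For Col6a2 the thinned shares were 56.3%, 31.8% and 70.4%, and for Sparc 12.5%, 7.11% and 29.6%. Antxr1 stood at 53.1% in both BALB/c and NOD after thinning. In the leukocyte-gated barcodes, thinned alike, the shares were 0.316% for Col6a1 and 1.58% for Antxr1, with a median depth of 30227 UMIs before thinning. Most of these barcodes had no mouse, unlike the immature mTEC-like cells compared here.

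The pair of collagen VI chains was often found in the same cell. Of the 180 BALB/c cells with a Col6a1 UMI, 65.6% also had Col6a2, against 21.5% of the 130 without one. Col12a1, by contrast, was present in 59.4% of the BALB/c cells with Col6a1 and 57.7% of those without. Antxr1 was present in 81.1% of the BALB/c cells with Col6a1 and 63.1% of those without. In NOD, 95 of 101 cells had Col6a1, 84 had Col6a2 and 82 held both chains. Only 6 NOD cells and 6 B6 cells lacked Col6a1, too few for the same comparison in those strains. Depth is shared by the genes of a cell, so these shares describe cells and were not tested.

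Markers of other cell types were read in the immature mTEC-like cells. The cells had been kept by epithelial genes, Epcam and Krt8 among them, and gated with Krt5 and Krt14, so their keratins follow from the choice of cells. Over the 432 cells of the class, Col1a1, Col1a2, Pdgfrb and Mfap5 had no UMI, Pdgfra had 6 and Col3a1 had 11. The fibroblast list as a whole had between 1 and 7 of 11 genes with a UMI and a summed level between 49.8 and 149 CPM over the 6 mice, nearly all of it from Dcn (57.9 CPM) and Fbln1 (25.8 CPM). The pericyte list had between 1 and 4 of 7 genes and between 536 and 827 CPM, mostly Rgs5 at 576 CPM, in 75.2% of cells, with Kcnj8 and Higd1b at 0. The endothelial list (between 1 and 5 of 7 genes) reached at most 12.4 CPM with Cdh5 and Cldn5 at 0. The Schwann list (1 to 3 of 5 genes) reached at most 17.7 CPM with Sox10 and Cdh19 at 0. The mesothelial list (1 or 2 of 5 genes) lay between 24.9 and 177 CPM, from Msln, with Upk3b and Lrrn4 at 0. The epithelial list had 9 or 10 of 10 genes and between 2863 and 4900 CPM.

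The other class with these genes, the contractile cells, is small. Col6a1 measured 47.0 and 153 CPM in the BALB/c mice and 214 and 367 CPM in NOD, from 6 and 57 UMIs and from 15 and 75 UMIs. NOD lay above BALB/c, as for Sparc with 31.3 and 45.5 CPM against 71.3 and 387 CPM. Col6a2 at 47.0 and 74.9 CPM (BALB/c) and 85.5 and 176 CPM (NOD) did not overlap either, whereas Col12a1 (149 and 99.0 CPM against 114 and 142 CPM) and Antxr1 (149 and 88.3 CPM against 200 and 132 CPM) did. B6 had 2 cells, which were not read. In Aire-stage cells Col12a1 measured 39.2 and 38.6 CPM (B6), 77.4 and 81.9 CPM (BALB/c) and 92.4 and 121 CPM (NOD), without overlap, from 9 to 27 cells a mouse. H2-Ea stood in these cells at 346 and 1087 CPM in B6 and at 349 and 11.4 CPM in NOD. Col12a1 levels without the cells that held it were not computed. Aire, the transcription factor that drives ectopic tissue genes, marks this stage; Antxr1 there stood between 3.18 and 14.1 CPM, with no order of strains.

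Sparc in tuft-like cells came from few cells. The class measured 84.3 and 21.1 CPM (B6), 234 and 189 CPM (BALB/c) and 125 and 368 CPM (NOD). BALB/c lay above B6, and NOD, with 8 and 10 cells, spanned the BALB/c values. Most tuft-like cells had no Sparc UMI: 108 of 112 and 83 of 88 (B6), 82 of 112 and 131 of 164 (BALB/c) and 6 of 8 and 8 of 10 (NOD). Cells with 10 or more UMIs numbered 1 and 2 (B6), 13 and 17 (BALB/c, 11.6% and 10.4%) and 1 and 1 (NOD). In B6 mouse 1 a single cell held 118 of the 123 UMIs, and without it the level was 3.52 CPM. In NOD mouse 2 a single cell held 87 of 90 UMIs, and without it the level was 14.5 CPM. In BALB/c the level without the highest cell was still 190 and 168 CPM.

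**Figure D5:**
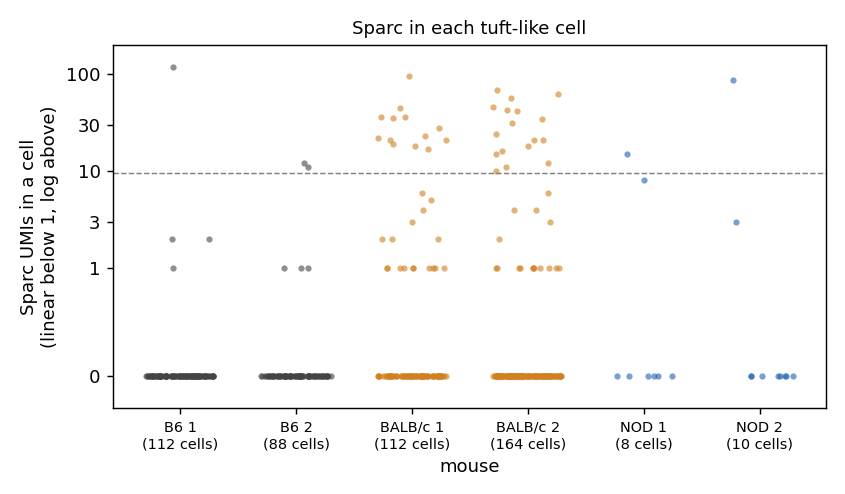
Sparc UMIs in each tuft-like cell (vertical axis: UMIs, linear below 1 and log above) by mouse, with 1 point a cell and a dashed line below 10 UMIs. The BALB/c mice hold 13 and 17 cells above the line, B6 mouse 1 and NOD mouse 2 a single high one.

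The 35 tuft-like cells with 10 or more Sparc UMIs held almost none of the other genes: no Col6a1 UMI, 1 of Col6a2, 1 of Col12a1 and 2 of Antxr1. They were deep, with a median of 28933 UMIs against 10924 in the 418 tuft-like cells without Sparc, and Epcam and Krt8 were found in all 35. Their hashtag share had a median of 93.8% against 96.4%, and droplets with 2 cells of the same mouse could not be removed by hashtag; their part was not tested. Cells assigned by HTODemux gave 4.36 and 2.13 CPM of Sparc in tuft-like cells of B6 and 274 and 189 CPM in BALB/c. With a hashtag share of at least 90%, NOD mouse 2 kept 4 tuft-like cells and no Sparc UMI. Cluster 18 held 46 BALB/c and 5 NOD tuft-like cells, with 777 and 854 CPM of Sparc.

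The genes nearest to each member were sought over 28 sums of at least 10 cells of 1 class and 1 mouse, among 12979 genes with a mean of at least 5 CPM, by Pearson's r of log2(CPM + 1). These sums share a library and differ in depth, and r is given as a description. Col6a1 was closest to Antxr1 (r = 0.89), then Pros1, Gm15867, Snai2 and Evc2 (r between 0.88 and 0.89). Col6a2 was closest to Boc (r = 0.90), then Olfml2a, Fst, Tgfb1i1 and Zcchc24, and its r with Col6a1 was 0.85. Antxr1 was closest to Sema6a (r = 0.94), then Ccdc80, Mtss2, Fzd2 and Ccl21a (r = 0.92), the chemokine gene that helped to define the immature class. Col12a1 was closest to Vcam1 (r = 0.91), then Msc, Smo, Cdhr1 and Slc1a3. Sparc was closest to Kirrel3 (r = 0.84), then Lef1, Colca2, Zfp322a and Lmo1, and its r with the other 4 expressed members lay between 0.14 and 0.28. Col6a3 was too sparse for this comparison.

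The rest of the matrix program was read from 7 lists with 198 genes in all: other collagen chains, collagen folding and crosslinking, SPARC family and matricellular genes, glycoproteins and proteoglycans, matrix receptors, proteases and inhibitors, and TGF-beta genes. In the epithelial sums the share of immature cells rises and that of tuft-like cells falls from B6 over BALB/c to NOD. The part of these shares in the list counts and in the differences of single genes was not tested. In BALB/c against B6 over epithelial cells, 33 of the 150 list genes tested passed an adjusted p of 0.05 (edgeR's quasi-likelihood test, Benjamini-Hochberg over all 15742 genes), 24 higher and 9 lower, where 9.14% of all genes passed, 4.64% higher and 4.50% lower. Their median log2 difference was 0.40 against 0.00 over all genes. Among glycoproteins and proteoglycans 7 of 24 rose and none fell. Eln, which encodes elastin, rose by 3.26 on the log2 scale (SE 0.36, adjusted p = 0.00459), from 1.03 and 1.29 CPM in B6 to 10.1 and 12.8 CPM in BALB/c. Postn, the matricellular periostin, rose by 2.88 (adjusted p = 0.00512), Tgfbi by 2.71 (adjusted p = 0.00508) and Ccn1 by 2.52 (adjusted p = 0.00302). Among the falls, the log2 difference was -4.28 (SE 0.71, adjusted p = 0.0154) for Col6a5, a collagen VI chain, and -4.10 (adjusted p = 0.00204) for Spock3, a SPARC family proteoglycan. It was -3.64 for Loxl3, a lysyl oxidase, -3.05 for Tnr, -2.67 for Col8a1 and -2.57 for Col22a1. Col6a5 had 4 and 2 UMIs in the BALB/c mice, and Loxl3, Tnr and Col22a1 stood at or below 1.21 CPM there. The sizes of these falls are therefore uncertain. The count rested on having both mice of each strain. Without any 1 of the B6 or BALB/c mice fewer list genes passed, and fewer of all genes passed as well.

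The level of Col6a5 over B6 epithelium was 8.48 and 6.95 CPM. In neuroendocrine-like cells of B6 it was 50.6 and 30.8 CPM, and in Aire-stage cells 46.3 and 7.73 CPM, from 13 and 3 UMIs. The 21 immature mTEC-like cells of B6 had no Col6a5 UMI, which allows up to 12.02 CPM, above the level over all B6 epithelium, so a difference from the other cells was not detectable at this depth.

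In NOD against B6, with the same B6 mice, 63 of 150 list genes passed, 46 higher and 17 lower, where 25.2% of all genes passed, 12.7% higher and 12.5% lower, and the list median was 0.54. Inhba, which encodes the activin beta-A subunit, rose (edgeR adjusted p = 0.0369), with 0 and 0.772 CPM in B6 and 25.1 and 3.38 CPM in NOD. Fbln2, a fibulin, rose (edgeR adjusted p = 0.0125), with 0.514 and 0.257 CPM in B6 and 11.5 and 4.22 CPM in NOD. No fold is given for these 2 genes because B6 had 3 UMIs of each in all. Eln rose by 3.77 (adjusted p = 0.00143), Postn by 3.19, the gelatinase gene Mmp2 by 2.96 and the adhesion receptor gene Mcam by 2.93. Among the falls, the log2 difference was -4.17 for Col8a1, -3.87 for Loxl3 and -3.50 (edgeR adjusted p = 0.000965) for Col4a4, a basement membrane chain. In the NOD mice Col8a1 stood at 0.412 and 2.53 CPM, Loxl3 at 0.412 and 1.27 CPM and Col4a4 at 1.65 and 2.11 CPM. The sizes of these falls are therefore uncertain. Col16a1 differed by -3.18 (edgeR adjusted p = 0.000857). Of the glycoproteins and proteoglycans 10 of 24 rose and 1 fell, and of the folding and crosslinking genes 8 of 25 rose and 2 fell. Without B6 mouse 1, which leaves 1 B6 mouse, fewer list genes and fewer of all genes passed.

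In NOD against BALB/c, 15 of 150 list genes passed, 6 higher and 9 lower, where 7.88% of all genes passed, 3.46% higher and 4.41% lower, and the list median was 0.19. Col4a4 fell, with a log2 difference of -3.37 (SE 0.30, adjusted p = 0.00354), from 20.1 and 22.0 CPM in BALB/c to 1.65 and 2.11 CPM in NOD. The difference was -2.14 (adjusted p = 0.0200) for Itga9, an integrin chain that binds tenascin, -1.79 for Ccn3, -1.40 for Smoc1, -1.35 for Col16a1 and -1.06 (adjusted p = 0.0214) for Tnc, which encodes tenascin C. Spock3 rose by 2.19 (adjusted p = 0.0118), the syndecan gene Sdc1 by 1.39 (adjusted p = 0.0371), Thbs3 by 1.23 and Colgalt1, a collagen glycosyltransferase, by 1.08 (adjusted p = 0.0192). Without any 1 of the BALB/c or NOD mice, which leaves 1 mouse in a strain, fewer list genes and fewer of all genes passed.

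Within immature mTEC-like cells, 16 of 105 list genes tested passed in NOD against BALB/c, 12 higher and 4 lower, where 6.10% of 10092 genes passed, 3.90% higher and 2.20% lower; this fit was added after the class difference had been seen. Timp1, a metalloproteinase inhibitor, rose by 2.28 (SE 0.22, adjusted p = 1.95e-06), from 30.5 and 27.7 CPM in the BALB/c mice to 160 and 117 CPM in NOD. Among collagen chains Col4a5 rose by 1.86 (adjusted p = 0.00438) and Col17a1, a hemidesmosome collagen, by 1.36 (adjusted p = 0.00289). Inhba rose by 2.38 (adjusted p = 0.0299) and Thbs3 by 1.40 (adjusted p = 0.00849). Smoc2 fell, with a log2 difference of -1.96 (adjusted p = 0.0174). Itga9 fell (adjusted p = 0.000374), from 24.7 CPM in both BALB/c mice to 1.48 and 1.54 CPM in NOD, and Thbs2 fell (adjusted p = 0.0220), with at least 13.8 CPM in the BALB/c mice against 0 and 3.07 CPM. DESeq2 passed 2 of these 105 genes, 1 higher and 1 lower, where 110 of all 10092 genes passed higher and 41 lower. The list's share was then near that of all genes.

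In tuft-like cells of BALB/c against B6, 18 of 81 list genes (22.2%) passed, 8 higher and 10 lower, where 17.1% of 12447 genes passed, 9.01% higher and 8.05% lower, so the list's share was near that of all genes. Serpinh1, the collagen chaperone, rose by 2.79 (SE 0.45, adjusted p = 0.00231), Col9a3 by 2.06 (adjusted p = 0.00264) and Col4a1 by 1.90 (adjusted p = 0.00520). Postn had no UMI in B6 tuft-like cells and 17.7 and 6.43 CPM in BALB/c. Spock3 fell, with a log2 difference of -6.91 (adjusted p = 0.000931), with 115 and 148 CPM in B6 and at most 2.60 CPM in BALB/c, and Antxr2, which encodes the other anthrax toxin receptor, differed by -1.67 (adjusted p = 0.0117). DESeq2 passed 4 of the 81 genes, all lower in BALB/c, so that none of the rises passed there. Of all 12447 genes it passed 172 higher and 208 lower. NOD had 1 mouse with enough tuft-like cells, 10 of them: 8 list genes passed against B6, 4 higher and 4 lower, where 7.70% of all genes passed, 4.16% higher and 3.53% lower. Against BALB/c 2 passed, 1 higher and 1 lower, where 1.29% passed, 0.731% higher and 0.554% lower. Both contrasts use the same NOD mouse and take their spread from the mice of the other strains. Col4a4 stood at 8.18 CPM in that mouse, from 2 UMIs, and between 63.7 and 68.7 CPM in the others.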

How the data were processed

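Single-cell RNA and hashtag libraries of 1 pool of 6 mice were used. The deposited matrix holds raw UMI counts per gene or hashtag and barcode, made with Cell Ranger 7.0.0 on mm10, per the submitters' processing notes; the annotation and the use of intronic reads are not given in the sources used here. Other deposited columns hold only names. The matrix held 55487 genes, of which 54349 identifiers matched GENCODE M21, the source of coordinates.

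Barcodes with at least 500 genes, under 15% mitochondrial UMIs and a hashtag share of at least 80% of at least 100 UMIs were kept (Python 3.11.15). The 822 passing barcodes without a mouse entered no comparison of mice or strains, and 9 hashtag features not of this pool were not used. Barcodes without a mouse that were gated as leukocytes did count towards the leukocyte background. A barcode joined a class when its mean log marker level reached 0.5 of that of the top 25 cells with at least 3 markers found, and the highest scaled score won; 64 cells lay between 0.45 and 0.55 for the immature score and 33 for the tuft score. No doublet caller was run, and the hashtag rule removes only droplets with cells of different mice. Clusters were made with scanpy 1.11.5.

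Counts were summed per mouse and class. CPM is UMIs per 1000000 UMIs of the class, and an absent gene's limit is 3 counts. Sums of at least 10 cells were fitted with edgeR 4.0.16 (TMM, its filter on low counts, quasi-likelihood test) over all genes, 3 residual degrees of freedom in the epithelial fit, with Benjamini-Hochberg adjustment at 0.05; the P-values measure the spread between these mice. A lone mouse of a strain is assumed to vary like the others. The test was checked on simulated data. Alternatives were DESeq2 1.42.0, HTODemux (Seurat 5.3.0), other filters, no filter, and leaving out each mouse. Labels give both NOD hashtags the same replicate number, so numbers could pair only B6 with BALB/c. Named list genes are up to 10 per contrast with the largest log2 difference among those passing; the same rule was applied to tuft-like cells and, after the data had been seen, to immature cells, and a few were left unnamed. The members and the lists were chosen with earlier results of these data known.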

Additional observations from a re-analysis of the deposited data

Results flagged for a closer look

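The 822 barcodes that passed the cell filters but had no mouse entered no comparison of mice or strains. Those gated as leukocytes did count towards the leukocyte background. Together the 822 held UMIs of 5 of the 6 genes above the 3 counts that an absent gene allows. They held 205 UMIs of Col6a1, 174 of Col6a2, 198 of Col12a1, 512 of Sparc and 165 of Antxr1, while Col6a3, with 3 UMIs, stood at that limit. Of the Sparc UMIs, 343 lay in 167 tuft-gated barcodes. The 36 immature-gated barcodes held 97 of the Col6a1, 90 of the Col6a2, 83 of the Antxr1, 59 of the Col12a1 and 32 of the Sparc UMIs. Which mice these came from was not tested.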

How the results depend on the processing

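The log2 ratio of NOD to BALB/c for Col6a1 in immature cells, 1.75, lay between 1.57 and 1.92 under all 13 alternatives run; that for Col6a2, 2.13, was 1.88 with a hashtag share of at least 90%. The ratios for Col12a1 (-0.64 to 0.21) and Antxr1 (-0.04 to 0.31) changed sign. Leaving out each mouse gave 7 to 36 list genes for BALB/c against B6 (33 with all mice), 36 to 50 for NOD against B6 (63) and 2 to 15 for NOD against BALB/c (15). In tuft-like cells it gave 15 to 27 (18), 10 to 17 (8) and 2 to 5 (2), and in immature cells 12 to 19 (16). The number of all genes that passed also changed with the mouse left out, so these list counts alone do not show whether the list stood apart. With each mouse left out, the members' median ranged from 1.95 to 3.49, from 3.36 to 5.17 and from 0.30 to 0.78 for the 3 contrasts. Without the filter on low counts 70 and 39 list genes passed for BALB/c against B6 and NOD against BALB/c, and 6 in tuft-like cells of NOD against BALB/c, with more genes tested. DESeq2 gave 4, 5 and 1 in the tuft-like contrasts and 2 in immature cells. HTODemux gave 13 and 5 in the tuft-like contrasts with NOD and a members' median of 2.84 for BALB/c against B6. The number of all genes that passed also changed between these settings, and the cause of these changes was not tested. With the replicate number as a block, 46 list genes passed over the 4 B6 and BALB/c mice, against 39 without the block, with members' medians of 2.35 and 2.27. In tuft-like cells the counts were 21 and 20; 2 pairs cannot show whether the numbers pair the mice. Tuft-like cells with a hashtag share of at least 90% left no NOD mouse with 10 cells, and that fit was not run for NOD. Depth limits Col6a3 in B6, where 12.02 CPM in immature cells could be missed.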
